A study of Rattus norvegicus with 30 samples.

Results

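The long-chain acyl-CoA synthetases were followed in whole heart of untreated rats of the inbred Fischer 344 (F344) strain, in 5 females and 5 males at each of 3 ages, young (8 weeks), adult (21 weeks) and old (78 weeks). All rows of the deposited expression tables named Acsl1, Acsl3, Acsl4, Acsl5 or Acsl6 were taken, which gave 7 rows for 5 gene names, of 27408 rows and 23268 names in the 8-week table. Each row was traced to the array, and the 7 rows rest on 11 probes. RNA of 1 rat was hybridized to each array, labeled with the dye Cy3 only, and every value below is the log2 of the background-subtracted signal of a probe minus the log2 of the 75th percentile of its array. A value of 0 is the level of the 75th percentile. No level is set against that of another probe, since probes differ in how brightly they hybridize.

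These enzymes join coenzyme A to long-chain fatty acids, a step that a fatty acid has to pass before it can be oxidized in mitochondria or built into triglyceride and phospholipid. The family members differ in where they sit in the cell and in the fatty acids they prefer. In heart muscle, which lives mostly on fatty acids, Acsl1 is known as the chief form and feeds mitochondrial oxidation. Acsl3 is tied to the endoplasmic reticulum and to lipid droplets, Acsl4 prefers arachidonic acid, Acsl5 lies partly on mitochondria, and Acsl6 is best known from brain and blood cells, where it handles polyunsaturated fatty acids.

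The arrays had 17182 to 24290 spots well above background, and the weakest was the adult male replicate 2, with a 75th percentile of the signal of 39.9 against 65.6 to 105 in the remaining adult males. In old rats, the array labeled female replicate 2 had Y chromosome transcripts at the male level (Ddx3y -1.68, Eif2s3y 0.58), and the array labeled male replicate 3 carried them at the female level (-6.25 and -6.37). Several values of old rats are therefore also given without both arrays. All other values, and the fits within a single sex, keep both arrays under their labels. Females and males of an age shared slides, but only slide 4 held more than a single age, with 2 young and 2 old rats. Age and slide cannot be told apart on the other 7 slides. The paper states that the ages were in different batches, and for that reason it evaluated no change with age. Rats that share slide 4 can still come from different batches, so age and batch cannot be told apart there either. All 8 heart muscle markers examined were measured, 7 of them well above background on all 30 arrays.

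The probes themselves decide what can be said about Acsl1. The array design writes a probe's position on the rat genome build rn3 from its start to its end, and the 4 probes that the array itself names Acsl1 run downward on chromosome 16. They lie, from the 3′ end of the gene, at chr16:49037060-49037119, chr16:49038180-49038239, chr16:49041997-49042734 and chr16:49069581-49069640. The third of these spans 738 bases of genome with 60 bases of probe, so it crosses an intron. The third row named Acsl1 in the tables is, once put on the log2 scale, the mean of the log2 values of these 4 probes. The first and second rows named Acsl1 come from probes to expressed sequence tags at chr16:49037129-49037188 and chr16:49038171-49038230, and both run upward, on the strand opposite to the gene. The probe of the second row is the reverse complement of a named Acsl1 probe over 51 bases. The first 30 of these are shown for both, because they show that the row and the named probe read opposite strands:
Acsl1, second row: cctaaccccttggttagaaaaacaggagac
Acsl1, named probe: gtctcctgtttttctaaccaaggggttagg
The probe of the first row was well above background on 0 of 30 arrays, and that of the second row on 30 of 30.

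The 2 Acsl1 probes on which the results turn lie inside the transcript and are printed because they differ below in how they moved with age. The intron-crossing probe was well above background on all 30 arrays and is used as the leading probe of Acsl1. The other lies 32.5 kb from the 3′-most probe and is the probe nearest the 5′ end:
Acsl1, leading: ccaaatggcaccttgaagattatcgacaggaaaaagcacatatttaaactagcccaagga
Acsl1, 5′-most: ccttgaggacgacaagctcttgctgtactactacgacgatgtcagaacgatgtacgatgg
The probes of Acsl5 (chr1:261808651-261809183) and Acsl6 (chr10:39782932-39791309) also span more genome than their length, and they align to each other without gaps. Over 54 aligned bases 35 were identical (64.8%), and the capitals mark the bases that differ:
Acsl5: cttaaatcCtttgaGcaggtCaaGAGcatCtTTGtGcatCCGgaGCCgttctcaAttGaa
Acsl6: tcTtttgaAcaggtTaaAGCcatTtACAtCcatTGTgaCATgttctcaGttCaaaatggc
No other pair of the 11 probes reached 50% identity. Acsl3 has 1 probe, at chr9:78289989-78290048. Acsl4 has 2, a leading probe at chrX:36285116-36285175 and another at chrX:36282882-36282941, which were well above background on 29 and 26 arrays.

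The first question was whether the family differed between the sexes at any age. It did not pass the test: limma, with the Benjamini-Hochberg adjustment over all probes, called 0 of the 11 probes at 8 weeks, 0 at 21 weeks and 0 at 78 weeks, where 0.0634%, 0.0317% and 0% of all probes were called. At an unadjusted p under 0.05 there was 1 probe at each age, against 4.33%, 13.5% and 4.62% of all probes. The smallest adjusted p among the 11 was 0.797, 0.362 and 0.935 in age order. The median difference, female minus male, was -0.02, 0.13 and 0.16 over the 11 probes and 0.03, -0.23 and 0.01 over all probes. Quantile normalization moved the median of all probes at 21 weeks to -0.02.

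**Figure D1:**
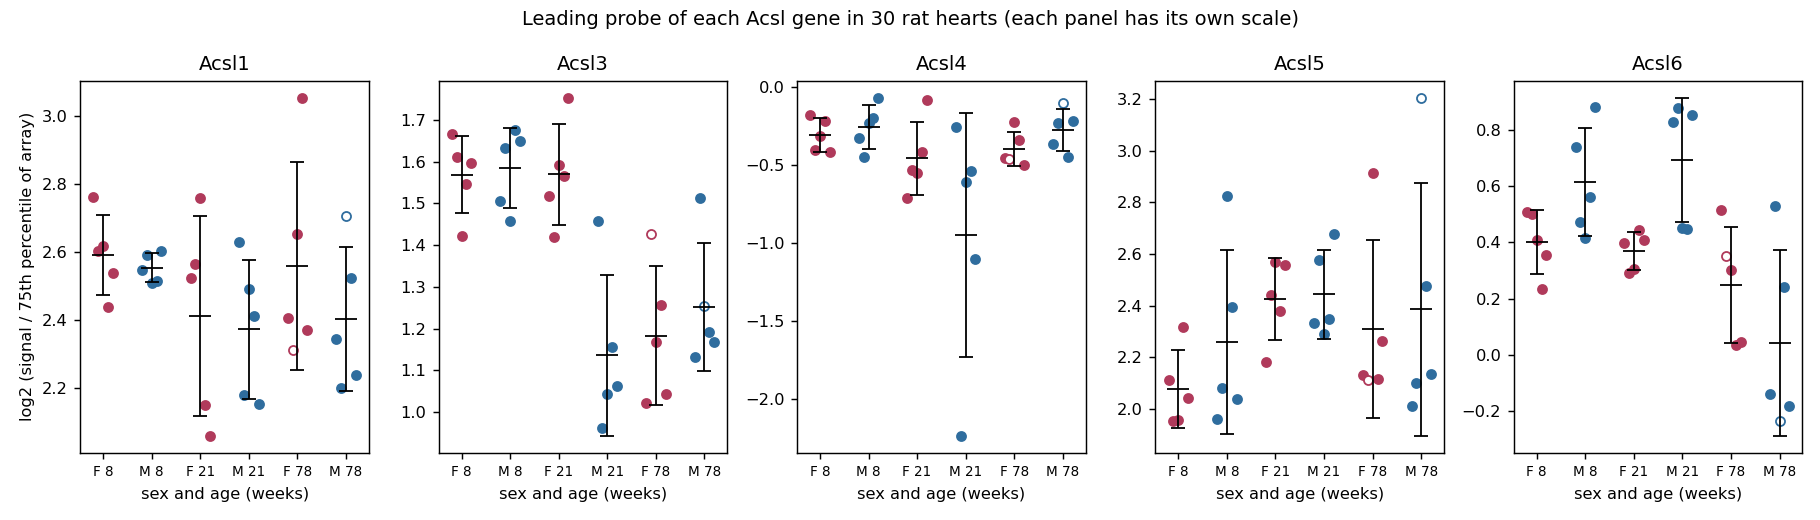
Log2 value of the leading probe of each Acsl gene (y axis, signal relative to the 75th percentile of the array) in females (F) and males (M) at 8, 21 and 78 weeks (x axis). Each point is 1 rat, open points are the 2 old rats whose Y-linked genes disagree with the sex label, and bars are mean ± SD. Acsl6 of adult males lies above all adult females, and Acsl3 of old rats lies low in both sexes.

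Acsl1, the chief heart form, did not separate the sexes on its leading probe. Young females averaged 2.59 ± 0.12 and young males 2.55 ± 0.04 (SD, n = 5 each), in adults 2.41 ± 0.30 and 2.37 ± 0.20, and in old rats 2.56 ± 0.31 and 2.40 ± 0.21. The differences were 0.04 (SE 0.08), 0.04 (SE 0.18) and 0.16 (SE 0.16), and the groups overlapped at every age. The spread in young males was narrow, 2.51 to 2.60, compared to 2.31 to 3.05 in old females. Without both old arrays at odds with their label the difference was 0.30 (limma adjusted p = 0.814), and with normexp background correction it was -0.17. The 5′-most probe gave 0.04, -0.19 and 0.23 at the 3 ages, none called, and the last of these was 0.37 without both doubtful arrays (limma adjusted p = 0.533).

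Acsl3 was the member with the smallest adjusted p in adult rats. At 21 weeks the females had 1.52, 1.42, 1.59, 1.57 and 1.75 and the males 1.46, 0.96, 1.04, 1.16 and 1.06, replicates 1 to 5 in order. A single male, replicate 1, lay within the female range, and the remaining males lay below every female. The females were 1.35-fold higher by 0.43 on the log2 scale (SE 0.15). A two-sided exact permutation test gave p = 0.0159, while the limma adjusted p was 0.362. The direction was the same on each of the 3 slides of that age, at 0.69, 0.26 and 0.48. A fit of all 30 arrays together, which takes the spread from all 6 groups, gave an adjusted p of 0.0211 and called 5.19% of all probes at this age. Among the alternatives tried this fit was the only one that called a member between the sexes.

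At 8 weeks Acsl3 did not separate the sexes, with 1.57 ± 0.09 in females and 1.58 ± 0.10 in males (SD, n = 5 each). At 78 weeks it was 1.18 ± 0.17 and 1.25 ± 0.15 (SD, n = 5 each). The change of the sex difference from young to adult rats was 0.45 (SE 0.15, limma adjusted p = 0.275) and from adult to old rats -0.50 (SE 0.15, adjusted p = 0.215). No member passed this test of a sex difference that moves with age, and 0.00244%, 0% and 0.00244% of all probes did for 21 against 8, 78 against 8 and 78 against 21 weeks. At an unadjusted p under 0.05 there were 2, 1 and 4 of the 11 probes, against 17.3%, 2.55% and 13.3% of all probes.

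Acsl6, the brain and blood cell form, had the cleanest separation of any leading probe. In adult rats the females had 0.40, 0.29, 0.31, 0.44 and 0.41 and the males 0.83, 0.88, 0.45, 0.45 and 0.85. Every adult female lay below every adult male, a pattern that 1.38% of all probes also had at this age. Males were 1.25-fold higher (difference -0.32, SE 0.15), an exact permutation test gave p = 0.00794, which is the lowest possible with 5 against 5 rats, and the limma adjusted p was 0.366. Within the 3 slides the differences were -0.45, -0.51 and -0.08. The size depended on the signal used: with the raw median signal the difference was -0.17 (adjusted p = 0.352) and with normexp correction -0.046 (adjusted p = 0.825).

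In young rats Acsl6 was 0.51, 0.50, 0.41, 0.23 and 0.35 in females and 0.74, 0.47, 0.42, 0.56 and 0.88 in males. Males again averaged higher, with overlap (difference -0.21, SE 0.11, exact permutation p = 0.0714, limma adjusted p = 0.928). At 78 weeks the order was turned, with 0.51, 0.35, 0.30, 0.04 and 0.05 in females and -0.14, 0.53, -0.23, 0.24 and -0.18 in males, a difference of 0.21 (SE 0.17, limma adjusted p = 0.935), and 0.11 without both doubtful arrays. The turn from adult to old rats was 0.53 (SE 0.19) and did not pass (limma adjusted p = 0.279).

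Markers of the red cell lineage were read beside Acsl6. Of the 8 markers 5 were found by symbol on the array, 3 of them well above background everywhere, and Rhag on no array. Their summed level, relative to the 75th percentile, was 40.7 to 67.0 in adult females and 55.6 to 99.0 in adult males. In young rats it was 28.7 to 48.4 and 42.7 to 69.0. In old rats it was 16.7 to 62.2 in females and 52.4 to 67.3 in males, so that males had the higher median (63.9 against 51.5) while Acsl6 averaged higher in females. The highest value of each sex came from an array at odds with its label. Without both arrays the sums were 16.7 to 54.8 in females and 52.4 to 64.4 in males. None of the 5 was called between the sexes at any age, and their part in the Acsl6 values was not tested.

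Acsl4, which prefers arachidonic acid, read differently on its 2 probes. The leading probe had means of -0.31 ± 0.11 in young females and -0.25 ± 0.14 in young males (SD, n = 5 each), and -0.40 ± 0.11 and -0.27 ± 0.14 in old rats. The other probe had -2.29, -2.04, -2.07, -1.79 and -2.26 in young females and -1.73, -1.67, -1.53, -1.90 and -1.63 in young males. All but 1 rat of each sex lay outside the range of the other sex, and males were 1.31-fold higher (difference -0.39, SE 0.11, limma adjusted p = 0.797, exact permutation p = 0.0159). The difference was -0.11 with the raw median signal and -0.083 with normexp correction.

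The same Acsl4 probe in old rats had -1.89, -1.99, -2.27, -2.65 and -2.67 in females and -1.57, -2.19, -1.63, -1.59 and -1.95 in males, 1.42-fold higher in males (difference -0.51, SE 0.19, exact permutation p = 0.0397, limma adjusted p = 0.935). Without both doubtful arrays the difference was -0.54, and with the replicate number as a block, which pairs old rats of the same slide, the adjusted p was 0.836. The pairs of replicates 2 and 3 in that fit each hold a doubtful array. Normexp background correction turned the difference to 0.01. In adult rats the difference of this probe had the opposite sign, at 0.43 (SE 0.37), where the probe was well above background in 4 females and 2 males. On the leading probe the adult difference was 0.49 (SE 0.33) and fell to 0.17 without the weak male replicate 2, which had -2.24 against -1.10 to -0.26 in the remaining adult males.

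Acsl5, a form found partly on mitochondria, differed by -0.18 (SE 0.17) in young, -0.02 (SE 0.15) in adult and -0.08 (SE 0.25) in old rats, with overlap at every age. Its spread came from a few rats. In young males replicate 3 had 2.82 against 1.96 to 2.39 in the remaining rats of the group. Among old rats replicate 3 of either labeled sex stood out, at 2.92 (female) and 3.21 (male), against 2.11 to 2.26 and 2.01 to 2.47. Without both doubtful arrays the difference of old rats turned to 0.18.

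The adipocyte markers were read on the same arrays. Of 7 markers 5 were found by symbol on the array, with Lep, the fat cell hormone, never well above background. Their summed level was 67.7 in young male replicate 3 against 16.3 to 29.6 in the remaining young males. In old male replicate 3 it was 155 against 28.8 to 82.8, and in old female replicate 3 it was 86.5, below the 92.1 of replicate 2, whose Acsl5 was 2.11. Among adults the highest sums were 153 in female replicate 5 and 104 in male replicate 4. Acsl5 of these 2 rats was 2.56 and 2.35, in groups that ran from 2.18 to 2.57 and from 2.29 to 2.68. The part of the adipocyte markers in the Acsl5 values was not tested.

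**Figure D2:**
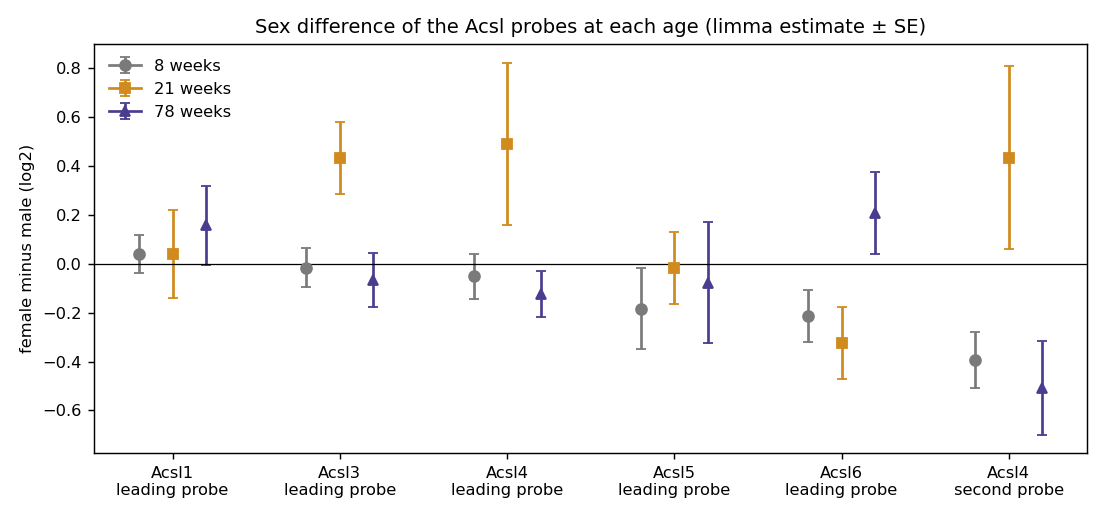
Female minus male difference (y axis, log2) of the leading probe of each Acsl gene and of the other Acsl4 probe (x axis), at 8 (circles), 21 (squares) and 78 weeks (triangles). Bars are the standard error of the limma estimate from 5 rats per sex; adult rats have Acsl3 at 0.43 and Acsl6 at -0.32, and none of the differences passed an adjusted p of 0.05.

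The second question was how the family changed with age, taking both sexes together and the slide as a random block. The slide correlation was -0.04, and this block does not remove slide differences that go with age. Between young and old rats 4 of the 11 probes were called, 1 higher and 3 lower, against 10.9% of all probes (5.71% higher, 5.22% lower). Acsl3, Acsl6 and the 5′-most probe of Acsl1 were lower in old rats, and the probe opposite to Acsl1 was higher. The median difference was -0.09 over the 11 probes and 0.12 over all probes, and the latter was 0.00345 after quantile normalization. From young to adult rats 6 of 11 were called, 3 in each direction, but 57.4% of all probes were called there (42.2% higher, 15.1% lower) and the median of all probes was shifted by 0.29. From adult to old rats 4 of 11 were called, 2 in each direction, against 33.1% of all probes (13.6% higher, 19.5% lower) and a median shift of -0.19. Among probes well above background in all 5 rats of at least 1 group, the shares called were higher. They were 25.3%, 64% and 62%, in the order of this paragraph. With no block the shares of all probes called were 8.89%, 54% and 30.5%, in the same order.

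Acsl3, the lipid droplet form, fell between young and old rats. In young rats it was 1.67, 1.61, 1.42, 1.55 and 1.60 in females and 1.51, 1.63, 1.46, 1.68 and 1.65 in males. In old rats it was 1.02, 1.43, 1.17, 1.26 and 1.04 in females and 1.13, 1.51, 1.25, 1.19 and 1.17 in males. All but 2 of the 10 old rats, the rats labeled female and male replicate 2, lay below the lowest young rat, and these 2 still lay below the young mean. The fall was 1.28-fold (log2 difference -0.35, SE 0.07, limma adjusted p = 0.00102). Normexp background correction gave -0.45, which was not called (limma adjusted p = 0.0784).

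The fall of Acsl3 was of similar size within females (-0.38, adjusted p = 0.0512) and within males (-0.33, adjusted p = 0.233), neither called by limma with 10 rats. On slide 4, which held both ages, it was -0.57 in the female pair and -0.52 in the male pair. A fit with slide as a fixed block compares the ages on slide 4 alone, so it adds no further rats. In that fit the fall was -0.55 (limma adjusted p = 0.116, 0.471% of all probes called). Without both doubtful arrays it was -0.39 (adjusted p = 0.000984). From young to adult rats Acsl3 was lower by -0.22 (SE 0.07, limma adjusted p = 0.00878). Normexp correction gave -0.33 for this step, which was not called (limma adjusted p = 0.101). In females this step was 0.0010 and in males -0.45, but the difference between the sexes did not pass the test given above.

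Acsl6 fell late. It was 0.51 ± 0.19 in young, 0.53 ± 0.23 in adult and 0.15 ± 0.28 in old rats (SD, n = 10 each). The step from young to adult rats was 0.02 (SE 0.09). From adult to old rats it fell 1.30-fold (-0.38, SE 0.09, limma adjusted p = 0.00165), and from young to old rats 1.28-fold (-0.36, SE 0.09, adjusted p = 0.0101). All 10 old rats lay below the adult mean, and 6 of them below every adult rat. The late step was -0.12 in females only (adjusted p = 0.571) and -0.64 in males only (adjusted p = 0.0111). These fits kept both doubtful arrays under their labels, where Acsl6 was 0.35 (old female replicate 2) and -0.23 (old male replicate 3). With normexp correction the late step was -0.28 and was not called (adjusted p = 0.588).

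The fall of Acsl6 was uneven between rats. From young to old, with the sexes as labeled, it was -0.16 in females and -0.56 in males. This difference of 0.42 (SE 0.19) did not pass (limma adjusted p = 0.9998). On slide 4 the old female was 0.16 higher and the old male 1.02 lower (-1.02) than the young rat of its sex. With slide as a fixed block, which compares the ages on slide 4 alone, the difference was -0.43 (limma adjusted p = 0.629). On the first scan day alone it was -0.28 (limma adjusted p = 0.0594).

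Acsl1 gave a different answer at each end of the gene. On the leading probe the mean was 2.57 ± 0.09 in young, 2.39 ± 0.24 in adult and 2.48 ± 0.26 in old rats (SD, n = 10 each), and no step was called. The step from young to adult rats, -0.17 (SE 0.09), was called with other scalings, at -0.30 with the percentile over detected probes and -0.27 with quantile normalization. The probe next to it toward the 3′ end changed by -0.09 (SE 0.08) from young to old rats, and the 3′-most probe, usable on 14 arrays because its spot carried an outlier flag on the remaining 16, by -0.04 (SE 0.13). On the 5′-most probe young females had 1.75, 1.53, 1.47, 1.60 and 1.56 and young males 1.47, 1.52, 1.66, 1.41 and 1.66. The old females had 1.29, 1.08, 1.39, 1.54 and 1.33 and the old males 1.07, 1.02, 1.42, 0.85 and 1.13. In 8 of 10 old rats this probe lay below the lowest young rat.

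The 5′-most probe was 1.27-fold lower in old than in young rats (-0.35, SE 0.09, limma adjusted p = 0.00812) and 1.21-fold higher in adult than in young rats (0.28, SE 0.09, adjusted p = 0.00833). From adult to old rats it fell 1.54-fold (-0.63, SE 0.09, adjusted p = 2.33e-06), with every old rat below every adult rat, a pattern shared by 1.7% of all probes. With normexp correction this fall was -0.47 and was not called (adjusted p = 0.366). The fall from young to old rats was -0.44 with slide as a fixed block (limma adjusted p = 0.470), a fit that rests on slide 4 alone. It was -0.47 with normexp correction (limma adjusted p = 0.0785). The leading probe changed by 0.09 (SE 0.10) from adult to old rats and by -0.09 (SE 0.10) from young to old rats. The rise in adult rats was lost with the percentile over detected probes (0.15, adjusted p = 0.103) and was near 0 with normexp correction. Whether the probes read different transcripts was not tested. The mean of the 4 probes, which is the third Acsl1 row, joins these unlike readings.

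The probe on the strand opposite to Acsl1 was higher in older rats in the main fit. It had -2.19 ± 0.32 in young, -1.86 ± 0.19 in adult and -1.75 ± 0.26 in old rats (SD, n = 10 each). The rise from young to old rats was 1.37-fold (0.46, SE 0.11, limma adjusted p = 0.00705), while the named probe that it overlaps by 51 bases was not called (-0.09, SE 0.08). On slide 4 it was 0.61 higher in the old female and 0.44 lower (-0.44) in the old male, so the rise was not seen on the slide that held both ages, where it averaged 0.09. The rise was 0.34 with normexp correction (limma adjusted p = 0.0785) and 0.39 in males only (limma adjusted p = 0.432), neither called. The first row named Acsl1 lay between -5.78 and -3.54 on the 30 arrays, never above background, and no fold is given for it.

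**Figure D3:**
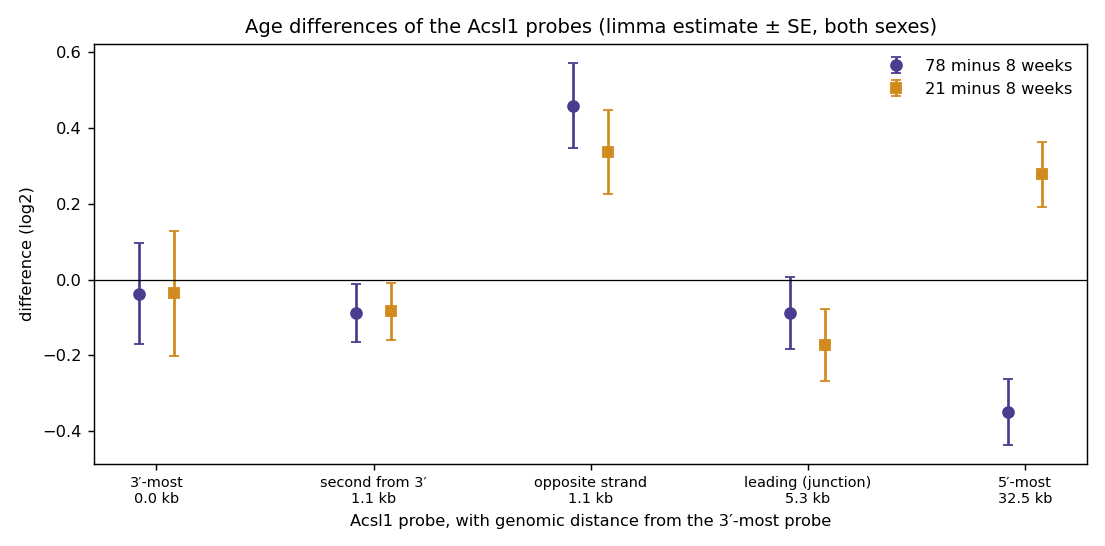
Difference between ages (y axis, log2, both sexes) of the Acsl1 probes, ordered along the gene from the 3′ end with their genomic distance from the 3′-most probe (x axis). Circles are 78 minus 8 weeks, squares 21 minus 8 weeks, and bars the standard error of the limma estimate. The 3 named probes toward the 3′ end lie between -0.17 and -0.04, while the 5′-most probe lies at -0.35 and 0.28 and the opposite strand at 0.46 and 0.34.

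Acsl4 and Acsl5 were not called between young and old rats. Acsl4 changed by -0.05 (SE 0.15) on the leading and -0.16 (SE 0.18) on the other probe, and Acsl5 by 0.18 (SE 0.13). In adult rats Acsl4 was 1.34-fold lower than in young rats on the leading probe (-0.42, SE 0.14, limma adjusted p = 0.0144) and the other probe differed by -0.71 (SE 0.18, adjusted p = 0.00178). The latter was well above background on 6 of the 10 adult arrays, and it gave -0.017 with the raw median signal (adjusted p = 0.827) and 0.20 with normexp correction. Without the weak adult male replicate 2 the leading probe gave -0.26 (adjusted p = 0.0160), and with normexp background correction it gave -0.03. From adult to old rats the leading probe was 0.37 higher (SE 0.14, adjusted p = 0.0468), a call that was lost on leaving out any of 25 of the 30 arrays. The call was also lost with no block (limma adjusted p = 0.0712). Without the weak male array the leading probe was 0.21 higher (adjusted p = 0.0755). The other probe was 0.55 higher (SE 0.18, adjusted p = 0.0168), and 0.49 without both doubtful old arrays (adjusted p = 0.0566). This value was 0.084 in females only, 0.032 with the raw median signal and 0.040 with normexp correction.

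How Acsl1 stood against the other members was followed within each array, as the leading Acsl1 probe minus the leading probe of each other gene. The size of such a difference depends on the probes, so only its movement is described, with no test. Acsl1 minus Acsl3 averaged 1.00 ± 0.10 in young, 1.04 ± 0.34 in adult and 1.26 ± 0.32 in old rats (SD, n = 10 each). Acsl1 minus Acsl6 averaged 2.06 ± 0.18, 1.86 ± 0.39 and 2.33 ± 0.43. Both moved toward Acsl1 from young to old rats, by 0.27 and 0.27, which is near the spread within a group (0.25 and 0.34). With normexp correction these movements were 0.06 and 0.0043.

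Against Acsl5 the movement was the other way. Acsl1 minus Acsl5 averaged 0.40 ± 0.32 in young, -0.04 ± 0.34 in adult and 0.13 ± 0.38 in old rats (SD, n = 10 each). Acsl1 minus Acsl4 averaged 2.85 ± 0.14, 3.10 ± 0.59 and 2.82 ± 0.27. Between the sexes in adult rats Acsl1 minus Acsl3 was 0.39 lower (-0.39) in females and Acsl1 minus Acsl6 0.36 higher, and with normexp correction these were -0.16 and 0.38. Acsl1 minus Acsl4 was 0.45 lower (-0.45) in females, but -0.18 without the weak male replicate 2, 0.021 with the raw median signal and 0.38 with normexp correction.

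**Figure D4:**
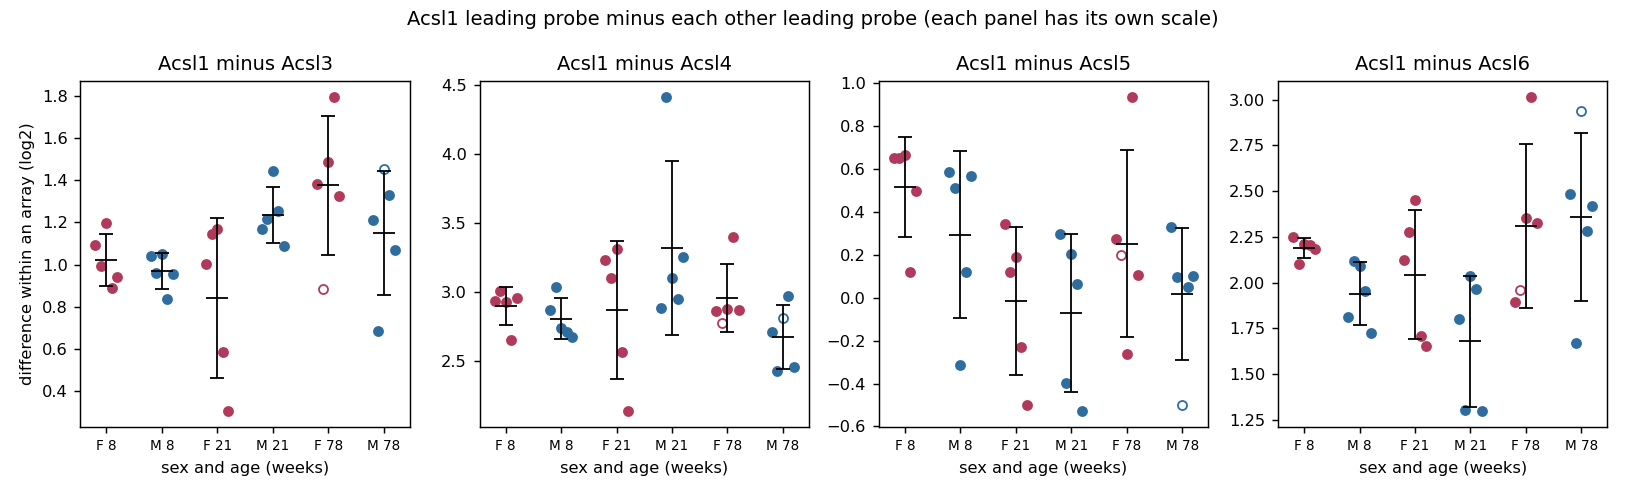
Leading Acsl1 probe minus the leading probe of Acsl3, Acsl4, Acsl5 and Acsl6 within each array (y axis, log2) in females (F) and males (M) at 8, 21 and 78 weeks (x axis). Each point is 1 rat, open points are the 2 old rats whose Y-linked genes disagree with the sex label, and bars are mean ± SD. The level of each panel depends on the probes; young rats spread least, with an SD of 0.10 over both sexes for Acsl1 minus Acsl3.

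Correlations between the members from rat to rat were weak to moderate. After the group means were taken out, the correlation over 30 arrays between leading probes ran from -0.29 (Acsl1 and Acsl6) to 0.49 (Acsl3 and Acsl4), with 0.31 for Acsl3 and Acsl6, a description over arrays that share slides and scaling. Among 7123 probes with a plain gene symbol, of 14305 well above background on all arrays, the genes most like Acsl1 were Pank1 (r = 0.83), a kinase of coenzyme A synthesis, Hadha (0.82), a subunit of the mitochondrial trifunctional protein of fatty acid oxidation, and Acad11 (0.81), an acyl-CoA dehydrogenase. Most like Acsl5 were Idh3B (0.79), of the citric acid cycle, Agpat2 (0.77), of triglyceride synthesis, and Slc25a1 (0.75), the mitochondrial citrate carrier. Acsl3 was nearest to Prkcn (0.69), Ptk2 (0.68) and Pctk2 (0.67), all kinases. Acsl4 was nearest to Xpo1 (0.82), Mkl1 (0.81) and Abca2 (0.80), and Acsl6 to Man1a (0.80), Paip1 (0.74) and Tmem55a (0.71). The Acsl4 correlations, also that with Acsl3, include the weak adult male replicate 2. Its Acsl4 was -2.24 against a group mean of -0.95 and not well above background. The part of this array in the correlations was not tested.

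Genes that act before and after the acyl-CoA synthetases were read from lists by role, of which 51 genes were found by symbol on the array. The counts below cover only these. A gene not found by symbol may still be on the array. The thioesterase Acot2, which the paper reported as higher in adult females, was not found by symbol. None of the 51 was called between the sexes at any age. Between young and old rats the other acyl-CoA synthetases had 1 of 9 measured genes higher and 0 lower (median 0.05), the gene being Slc27a2, a very long-chain synthetase, at 2.27 (SE 0.64, limma adjusted p = 0.0192, well above background on 22 arrays). Of the uptake and binding genes 0 of 10 rose and 1 fell (median -0.02), the binding protein Fabp5 at -0.28 (SE 0.09, adjusted p = 0.0347). Of the 4 thioesterases, which undo the synthetase step, Them4 fell (-0.67, adjusted p = 0.00764, well above background on 16 arrays), with a list median of -0.03.

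The carnitine shuttle, which takes acyl-CoA into mitochondria, had 1 of 8 genes higher in old rats and 0 lower (median 0.18). That gene was Cpt1b, the muscle carnitine palmitoyltransferase, at 0.26 (SE 0.07, limma adjusted p = 0.0155). Of 12 genes of glycerolipid synthesis 1 rose and 3 fell (median 0.11). Agpat2 rose by 0.78 (adjusted p = 0.0369), while Agpat3 fell by 0.80 (adjusted p = 6.49e-05), Agpat4 by 0.57 (adjusted p = 9.15e-05) and the phosphatidate phosphatase Lpin1 by 0.45 (adjusted p = 0.000335). Of the 8 regulators 0 rose and 1 fell (median -0.01), the coactivator Ppargc1a at -0.43 (SE 0.13, adjusted p = 0.0381). The median over all probes was 0.12, and the share called 10.9%, or 25.3% with dim probes filtered out.

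Fewer cells of a type and less RNA per cell cannot be told apart in whole heart. Between young and old rats the adipocyte list had 1 of 5 markers higher (Cfd, 1.28, limma adjusted p = 0.00141), with a summed level of 16.0 to 67.7 in young and 28.8 to 155 in old rats. The endothelial marker Cdh5 fell by 0.65 (adjusted p = 1.86e-05). Of the heart muscle markers 1 of 8 rose, Nppa, by 0.44 (adjusted p = 0.0125). Of the leukocyte markers 2 of 6 rose and 1 fell, and none of the 5 red cell, 2 smooth muscle, 4 nerve and 3 skeletal muscle markers was called. The part of these cell types in the fall of Acsl3 and Acsl6 was not tested.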

How the data were processed

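RNA of each heart was hybridized to a 1-colour Agilent rat array. Per the file headers the intensity values are background-subtracted by Feature Extraction 9.5.1.1. The deposited tables hold the authors' normalized intensities, scaled to the 75th percentile and not in log2, and their log2 was taken here. Of the single-row names of the 8-week table, 97% were traced to array probes within 0.0001 on the log2 scale. Intensity was averaged over the spots of a probe, without spots flagged as outliers (94 to 226 per array), divided by the 75th percentile over non-control probes and put on the log2 scale (41012 probes). Sex was tested within each age (limma 3.58.1, R 4.3.3), the change of the sex difference over all 30 arrays, and age over all 30 arrays with slide as a random block (correlation -0.04), adjusted over all probes at 0.05. Named probes were all member probes, the like genes the 3 with the highest correlation, and the list genes those called. The fits were tested on simulated data. Two-sided exact permutation tests numbered 32. Members and lists were chosen with earlier results of these data known. Intensities carry no counts, so the number of arrays limits the precision. Alternatives were other background corrections, scalings, blocks and subsets, and leaving out each array. Same-numbered rats of both sexes shared a slide. By the rule used, that the deviations of every pair correlate over 0.1, the numbers were treated as pairs at 78 weeks (0.14 to 0.31). They were not at 8 (-0.21 to 0.19) or 21 weeks (-0.15 to 0.57). Since each pair shared a slide, the rule cannot tell paired rats from a shared slide. Genome sequence and annotation of build rn3 were not used here.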

Additional observations from a re-analysis of the deposited data

Results flagged for a closer look

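In 61 groups of 4 or 5 values, 3 had a sample far from the others, and chance alone marks about 1 group in 20. In adult females, replicate 4 was lowest on the Acsl1 probe next to the 3′-most, at 4.95 against 5.12 to 5.17 in the others. The same rat was lowest on the dimmer Acsl4 probe, at -3.22 against -2.30 to -1.93. In old females, replicate 3 was highest for Acsl5, at 2.92 against 2.11 to 2.26.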

How the results depend on the processing

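Of 489 single-probe values recomputed under other settings, 405 kept their direction and their side of the threshold, 33 changed sign, 43 lost and 6 gained a call, and 2 moved by more than the spread. The number of the 11 probes called moved as follows. For 78 against 8 weeks (4) it was 1 in females only (2.6% of all probes called), and 0 in males only (2.18%), with normexp background correction (0.89%) and with slide as a fixed block (0.471%), a fit that compares these ages on slide 4 alone. For 21 against 8 weeks (6) it was 0 in females only (10.8%), 3 in males only (47%) and 0 with normexp (2.15%). For 78 against 21 weeks (4) it was 2 on 1 scan day (8.15%), in females only (11.8%) and without both doubtful arrays (30%, added after seeing the data), and 0 with normexp (0.739%). At 21 weeks the sex difference had 1 with all 30 arrays in one fit (5.19%). Leaving out each array gave 4 to 4, 6 to 7, 3 to 5 and 0 to 0 for these, and 0 to 1 for the change of the sex difference from 21 to 78 weeks, where the 1 came without male 21-week replicate 1. The cause was not tested.

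With normexp, signs changed in the sex difference of Acsl1 at 78 weeks (-0.17), Acsl3 at 8 weeks (0.022), Acsl4 (-0.043), Acsl5 (0.34) and the other Acsl4 probe (-0.26) at 21 weeks and that probe at 78 weeks (0.011). They also changed in Acsl4 (0.042) and Acsl5 (-0.23) from 8 to 78 weeks and in Acsl5 (-0.12), Acsl6 (-0.10) and the other Acsl4 probe (0.20) from 8 to 21 weeks. With the raw median signal this held for Acsl3 at 8 weeks (0.058), Acsl5 (0.025) and the other Acsl4 probe (-0.11) between the sexes at 21 weeks, Acsl5 from 21 to 78 weeks (0.012) and Acsl6 from 8 to 21 weeks (-0.018). With the percentile over detected probes it held for Acsl5 between the sexes at 21 weeks (0.0093), Acsl3 (0.0072) and Acsl5 (0.055) from 21 to 78 weeks, Acsl6 from 8 to 21 weeks (-0.10) and the 3′-most Acsl1 probe from 8 to 78 weeks (0.0017). Quantile normalization turned Acsl5 from 21 to 78 weeks (0.019). In females only, Acsl3 (0.0010) and Acsl6 (-0.036) from 8 to 21 weeks and both Acsl1 probes nearest the 3′ end from 8 to 78 weeks (0.14 and 0.042) turned, and in males only Acsl3 from 21 to 78 weeks (0.12). Without both doubtful arrays Acsl5 at 78 weeks was 0.18. With outlier-flagged spots kept, added after seeing the data, the 3′-most probe was 0.041 from 8 to 78 weeks. The first Acsl1 row, well above background on 0 of 30 arrays, gave -0.38, -0.28 and -0.013 between the sexes in age order, which are background values and say nothing of the direction of Acsl1. None of these turned values was called. Acsl1 minus Acsl4 between the sexes at 21 weeks turned to 0.38 with normexp and 0.021 with the raw median signal, and leaving out each array in turn (added after seeing the data) gave -0.56 to -0.18.

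With the replicate number as a block, which pairs the rats at 78 weeks, 0 of the 11 probes and 0% of all probes were called between the sexes at that age. By Eif2s3y both rats of replicate 2 were at the male level (0.58 and 0.63) and both of replicate 3 at the female level (-6.51 and -6.37). These pairs may therefore hold no sex contrast. The 3′-most Acsl1 probe turned to 0.074 from 8 to 78 weeks, and the block changed no other call or direction. Leaving out each array turned the sex difference of Acsl1 at 8 (-0.0038 to 0.077) and 21 weeks (-0.048 to 0.13), Acsl3 at 8 weeks (-0.047 to 0.021), Acsl5 at 21 (-0.057 to 0.043) and 78 weeks (-0.23 to 0.13), Acsl6 from 8 to 21 weeks (-0.0050 to 0.054) and the 3′-most probe from 8 to 78 weeks (-0.10 to 0.0070). The methods' t-test put 1, 2 and 1 of the 11 probes under an unadjusted 0.05 in age order (the dimmer Acsl4 probe, then Acsl3 and Acsl6, then the dimmer Acsl4 probe) and 0 after Benjamini-Hochberg. The dimmer Acsl4 probe was well above background on 26 arrays, which limits its values at 21 weeks.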
